A study of Vitis vinifera with 219 samples.

Results

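The comparison described here is the last large step in the ripening of Pinot noir berries of the 2014 season, between the samplings labelled day 35 and day 42, counted from veraison, when berries begin to colour and soften. Its libraries were taken by label, as those of time point 9 (day 42, 3 libraries) and of time point 8 (day 35, 3 libraries), which makes 6 libraries of a series of 73 groups of 3. Both groups are pericarp of Vitis vinifera Pinot noir, from unthinned vines of 1 clone on Freedom rootstock in 1 Californian vineyard. Each library came from berries of several clusters that were pooled and ground together, with seeds taken out during grinding, so skin and flesh were measured as a mixture. The blocks of vines were laid out along 3 rows, and same-numbered libraries are not said to share vines between days. The labelled sugar content was 24.14, 24.51 and 22.91 g/100 ml at day 42, against 19.02, 20.94 and 19.60 g/100 ml at day 35. The means were 23.85 ± 0.84 g/100 ml at day 42 and 19.85 ± 0.98 g/100 ml at day 35 (SD, n = 3 each). The same calendar step in Pinot noir 2013, in Cabernet Sauvignon 2014 and, from day 32, in Pinot noir 2012 is set beside it below, with 3 libraries per day in each and with no library in common.

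A grape berry in late ripening goes on importing sucrose, splits it into hexoses stored in the vacuole, loosens its walls and, in red cultivars, fills the skin with anthocyanins. Chalcone synthase (CHS) opens the flavonoid pathway, later enzymes (CHI, F3H, the hydroxylases F3'H and F35H, DFR and LDOX) build the anthocyanidin, and UFGT adds the sugar that stabilises the pigment. Stilbene synthases (STS) use the same substrates as chalcone synthase to make resveratrol, and are known to respond to stress and to late ripening. Gene families such as STS, CHS, F35H and PR10 hold near-identical copies, and how reads shared between copies were assigned is not given in the sources used here, so the values of single copies are uncertain.

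The 6 libraries were alike in their totals. The sum of RPKM (mapped reads scaled to the length of the gene model and to the size of the library) was 942422 to 949554 at day 42 and 918917 to 928199 at day 35, and the read depth behind these values is unknown. On the log2(RPKM + 1) scale the libraries correlated across genes at 0.9875 to 0.9895 within day 42, at 0.9808 to 0.9893 within day 35, and at 0.9613 to 0.9793 between the days. The difference between 71 genes high in other Pinot noir libraries and 49 high in Cabernet Sauvignon was 3.22 to 3.40 log2 in the 6 libraries, above the lowest value of 2.88 in other Pinot noir libraries and the highest of -1.99 in Cabernet Sauvignon ones, so the cultivar label held. The ripening berry marker CHI4D, a chitinase (VIT_05s0094g00340), was at 12992 to 13393 RPKM at day 42 and 13287 to 14817 RPKM at day 35. Of 5 markers of seed coat and young tissue, 1 (MYBPA1) was called higher, and their sum was 20.4 to 27.8 RPKM at day 42 and 7.69 to 12.3 RPKM at day 35, without overlap. MYBPA1 itself was at 14.9 to 23.4 RPKM at day 42 and 2.98 to 8.16 RPKM at day 35, so it made up most of the sum at day 42. Among them the tannin enzyme ANR (VIT_00s0361g00040) was at 2.24 to 3.99 RPKM at day 42 and 2.46 to 2.94 RPKM at day 35, LAR1 (VIT_01s0011g02960) was under 0.5 RPKM in all 6 libraries, and MYBPA2 was listed at 0 in 5 of 6.

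The low values separated the libraries of the compared days. Among genes under 0.4 RPKM in both members of a pair of libraries, ratios of values piled up in 1 bin of 0.02 log2 for some pairs: the fullest bin held 13.6% to 18.7% of ratios within day 42 and 5.94% to 11.2% within day 35, but 2.39% to 3.98% between the days. Linking libraries at a share above 8% put all 3 libraries of day 42 in 1 set with 15 other libraries, and all 3 libraries of day 35 in another set of 34 libraries. The day 42 set also held days 49 and 52 of Pinot noir 2014, and it cut through 5 sampling groups of other days, seasons or cultivars. Its difference from all libraries outside it could therefore be estimated within those groups (6 libraries in the set, 9 outside it). Of the 9, the day 35 set held 1 library of 1 group and 2 of another, both groups of Cabernet Sauvignon 2014. This difference thus rests mostly on other libraries and says little about the contrast between the sets of day 42 and day 35. With the set as a term in the model, 0 genes were called for the set itself, and 429 of 21425 (2.00%) had an unadjusted p under 0.05. What the sets stand for is not given in the labels.

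**Figure D1:**
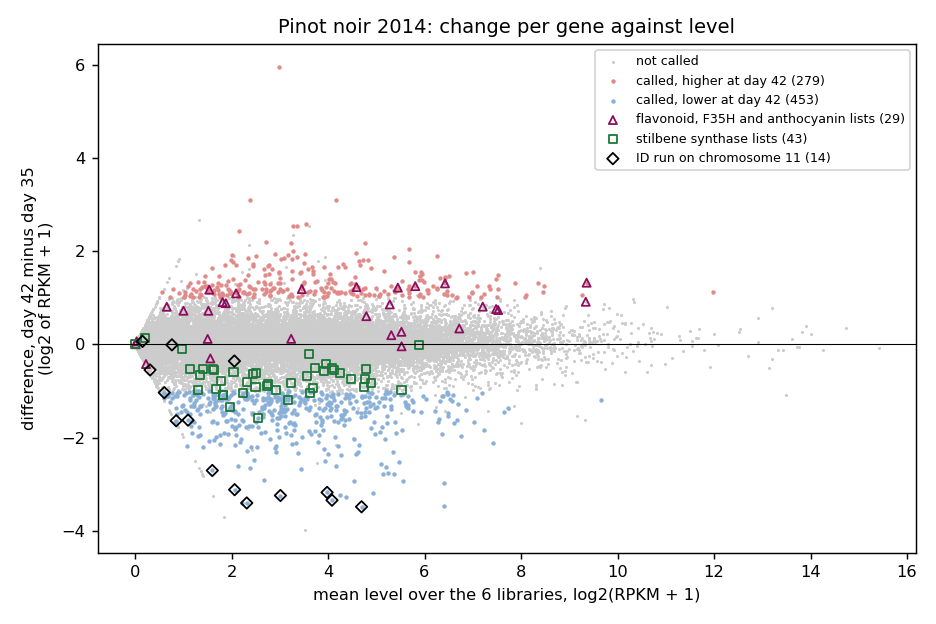
Each point is a gene, with its mean level over the 6 libraries, log2(RPKM + 1), on the x axis and its log2 difference, day 42 minus day 35, on the y axis. Red points were called higher at day 42 (279 genes) and blue points lower (453 genes), grey points were not called, and open symbols mark flavonoid and anthocyanin lists (29 genes), stilbene synthases (43) and a run of IDs on chromosome 11 (14), which lies at the lower edge.

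Of 21425 genes tested, 732 (3.42%) were called, which means a Benjamini-Hochberg adjusted p under 0.05 in limma and a log2 difference of at least 1 in size. At day 42, 279 genes (1.3%) were higher and 453 (2.11%) were lower than at day 35. The median of all genes was 0.01 log2. Genes whose 3 day 42 libraries all lay above the 3 of day 35 made up 24.9% of those tested, and 19.5% lay wholly below, so lack of overlap alone is common in this comparison. Calls were fewer on the other steps of the same vines from day 21 on. There were 477 for day 28 against day 21 and 341 (1.59%) for day 35 against day 28. Later there were 39 (0.182%) for day 49 against day 42, and 3 (0.014%) for day 52 against day 49. These steps share libraries with their neighbours. Sugar contents were 14.44 ± 0.68 g/100 ml at day 21, 18.53 ± 3.63 at day 28, 25.71 ± 3.14 at day 49 and 25.57 ± 1.37 at day 52 (SD, n = 3 each). The spread was wider at days 28 and 49 than at days 35 and 42. As RPKM is a share of each library, fewer cells of a type and less RNA per cell cannot be told apart in any of these values.

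With the library set as a term, 786 genes were called and 639 of the 732 were among them. All 279 higher and all 453 lower genes kept their sign. The median difference of the lower genes was -1.41 with the term and -1.37 without it. The term did not set the day 42 set against the day 35 set alone, and the part of that contrast in the step was not tested. Of the 6 libraries, replicate 3 of day 35 moved the count most. Without it 552 genes were called, 300 of them lower, and 495 of the 552 were among the 732. It was the day 35 library farthest from the mean of day 42 for 343 of the 453 lower genes and for 150 of the 279 higher ones. Replicate 3 of day 42 was the day 42 library nearest to the mean of day 35 for 277 of the lower and 172 of the higher genes.

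Part of the flavonoid core rose at day 42. Of 11 core flavonoid genes 4 rose and 0 fell, while 7 did not pass, and they had a median log2 difference of 0.81, against 0.01 over all genes and 1.3% of all genes called higher. CHS2 (VIT_14s0068g00920) had 167, 134 and 108 RPKM at day 42, against 65.4, 50.8 and 46.2 RPKM at day 35. The lowest day 42 library was well above the highest of day 35, and the level was 2.52 times as high (log2 difference 1.31, SE 0.36, limma adjusted p = 0.00312). CHS1 (VIT_14s0068g00930), its close copy, was at 41.6, 36.5 and 30.5 RPKM at day 42 and at 15.5, 15.0 and 13.8 RPKM at day 35 (log2 difference 1.23, SE 0.32, limma adjusted p = 0.00207). CHS3 (VIT_05s0136g00260), the chalcone synthase with the highest RPKM here, had 1196, 1039 and 899 RPKM at day 42 and 542, 421 and 312 RPKM at day 35. It rose by 1.32 log2 (SE 0.44, limma adjusted p = 0.0183), without overlap between the days, but it missed the threshold without replicate 3 of day 35 (adjusted p = 0.119).

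F3H1 (VIT_04s0023g03370), a flavanone hydroxylase that follows chalcone isomerase, had 84.4, 64.1 and 51.9 RPKM at day 42 and 34.4, 24.5 and 25.0 RPKM at day 35. The days did not overlap, and the log2 difference was 1.22 (SE 0.31, limma adjusted p = 0.00158). Of the 11 genes, 8 lay wholly above day 35 in their day 42 libraries, the 4 called and another 4 under the size threshold. Of all genes tested, 24.9% lay wholly above. LDOX (VIT_02s0025g04720), which forms the coloured anthocyanidin, averaged 196 ± 27.7 RPKM at day 42 and 111 ± 3.86 RPKM at day 35 (SD, n = 3 each; log2 difference 0.81). F3'H (VIT_17s0000g07200), the hydroxylase of the cyanidin branch, averaged 51.5 ± 5.88 RPKM at day 42 and 28.1 ± 3.99 RPKM at day 35 (log2 difference 0.86), and the chalcone isomerase CHI1 (VIT_13s0067g03820) 234 ± 39.3 RPKM at day 42 and 137 ± 11.7 RPKM at day 35 (log2 difference 0.76). F3H2 (VIT_18s0001g14310), a second flavanone hydroxylase, averaged 117.7 ± 4.76 RPKM at day 42 and 92.8 ± 3.47 RPKM at day 35 (log2 difference 0.34). The flavonol regulator MYBF1 (VIT_07s0005g01210) lay wholly below, with 0, 0 and 0.0324 RPKM at day 42 and 0.222, 0.210 and 0.682 RPKM at day 35. It was not called (log2 difference -0.42, SE 0.20, adjusted p = 0.119), though it was called lower with a pseudocount of 0.1. DFR (VIT_18s0001g12800), which stands between F3H and LDOX in the pathway, was not called: its log2 difference was -0.04 (SE 0.16), and its libraries overlapped. With the set term, 6 of the 11 genes were called higher. By limma's test against a minimum change of 0.5 log2, 0 of the 11 were called, with 345 calls over all genes. The F35H, anthocyanin and NAC lists, given below, also had 0 calls by that test.

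F35H, the hydroxylase of the delphinidin branch, is encoded by a row of similar genes on chromosome 6. Of 11 listed IDs, 9 were tested; 3 rose, 0 fell and 6 did not pass, with a median log2 difference of 0.88, against 1.3% of all genes called higher; with the set term 4 rose. The member with the highest RPKM, VIT_06s0009g02830, had 17.3, 16.1 and 13.5 RPKM at day 42 against 5.31, 8.12 and 5.70 RPKM at day 35 (log2 difference 1.18, SE 0.32, limma adjusted p = 0.00271). VIT_06s0009g02810 had 4.13, 3.47 and 2.62 RPKM at day 42 and 0.694, 1.64 and 0.617 RPKM at day 35 (1.17, SE 0.29, adjusted p = 0.000806). VIT_06s0009g02880 had 7.83, 5.28 and 3.37 RPKM at day 42 and 1.85, 2.00 and 1.91 RPKM at day 35 (1.09, SE 0.27, adjusted p = 0.000873), and without replicate 1 of day 42, its highest library, it missed the threshold. All 3 were free of overlap between the days, and with a pseudocount of 5 none of the 3 was called. Summed over the 9 IDs, F35H made up 43.6, 34.6 and 27.7 RPKM at day 42 and 11.3, 16.8 and 12.1 RPKM at day 35. These genes had fallen before the step. At day 35 against day 28, 2 of the 9 were called lower and 0 higher (median -0.58), with 129 of all 21425 genes called lower. The median over the 9 IDs of their mean RPKM was 1.94 at day 28, 0.984 at day 35 and 3.41 at day 42. VIT_06s0009g02830 averaged 14.1, 6.38 and 15.6 RPKM at days 28, 35 and 42.

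The dedicated anthocyanin genes moved less evenly. Of 9, 1 rose, 0 fell and 8 did not pass, with a median log2 difference of 0.60, against 0.01 over all genes and 1.3% of all genes called higher. UFGT (VIT_16s0039g02230) had 89.4, 88.6 and 78.6 RPKM at day 42 and 38.6, 37.3 and 30.6 RPKM at day 35. No library of one day reached the range of the other (log2 difference 1.25, SE 0.39, limma adjusted p = 0.0108; 1.15, adjusted p = 0.0596, without replicate 3 of day 35). The regulators of UFGT were not called: MYBA1 (VIT_02s0033g00410) had 9.13, 7.52 and 9.96 RPKM at day 42 and 6.92, 7.45 and 10.1 RPKM at day 35, and MYBA2 (VIT_02s0033g00390) had 58.7, 49.2 and 41.7 RPKM at day 42 and 43.2, 35.8 and 44.0 RPKM at day 35. Both overlapped between the days (log2 differences 0.12, SE 0.39, and 0.27, SE 0.43). GST4 (VIT_04s0079g00690), which serves the transport of anthocyanins to the vacuole, had 1052, 866 and 772 RPKM at day 42 and 465, 519 and 434 RPKM at day 35; it did not overlap and was 1.90 times as high, but the model's error for this gene was wide (log2 difference 0.91, SE 0.59, adjusted p = 0.287). The acyltransferase 3AT (VIT_03s0017g00870) and the methyltransferase AOMT (VIT_01s0010g03510) also lay wholly above day 35, with log2 differences of 0.72 (SE 0.24) and 0.60 (SE 0.44), under the size threshold. The 6 berry skin markers of this comparison are MYBA1, MYBA2, UFGT, GST4, AOMT and 3AT, of which 1 was called higher and 0 lower. All 6 are also members of the anthocyanin list. They summed to 1249.7, 1046 and 934 RPKM at day 42 and to 576, 625 and 539.5 RPKM at day 35. The sums did not overlap, but GST4, which was not called, made up most of each sum. The part of skin in the flavonoid values was not tested.

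Among other MYB factors of the flavonoid branches, MYBC2-L1 (VIT_01s0011g04760), a repressor of flavonoid genes, had 33.2, 30.7 and 31.0 RPKM at day 42 and 14.0, 14.3 and 13.3 RPKM at day 35. The replicates were close and the days far apart (log2 difference 1.13, SE 0.17, limma adjusted p = 7.38e-08; 0.99, just under the size threshold, with the set term). It was the 1 of 4 MYB repressors that rose (1.3% of all genes were called higher). MYBPA1 (VIT_15s0046g00170), a regulator of tannin synthesis, had 23.4, 14.9 and 15.9 RPKM at day 42 and 8.16, 6.09 and 2.98 RPKM at day 35, a log2 difference of 1.55 (SE 0.40, limma adjusted p = 0.00164). It is also 1 of 5 markers of seed coat and young tissue, whose sum was 20.4 to 27.8 RPKM at day 42 and 7.69 to 12.3 RPKM at day 35. That sum includes MYBPA1, which made up most of it at day 42, so the sum is no separate measure of such tissue. The part of such tissue in the flavonoid values was not tested. MYBPA1 averaged 13.2 ± 6.01 RPKM at day 28, 5.74 ± 2.61 at day 35 and 18.1 ± 4.63 at day 42 (SD, n = 3 each). It was the 1 of 8 proanthocyanidin genes that rose. The enzymes of the list, ANR, LAR1 and LAR2, overlapped between the days. The regulator MYB5a (VIT_08s0007g07230) averaged 5.75 ± 0.61 RPKM at day 42 and 8.89 ± 0.77 RPKM at day 35 (log2 difference -0.55, under the size threshold).

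**Figure D2:**
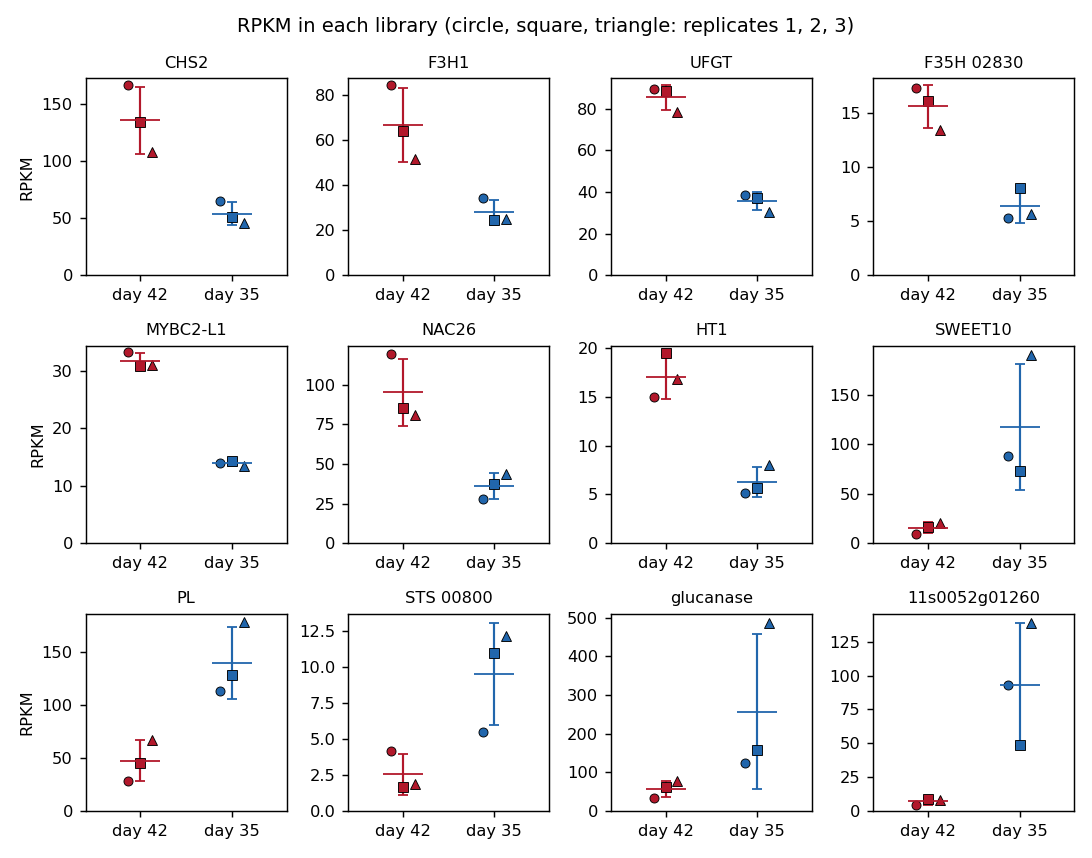
RPKM (linear axes from 0) of 12 genes in each of the 6 libraries, day 42 left in red and day 35 right in blue; circles, squares and triangles are replicates 1, 2 and 3, and bars show the mean and SD (n = 3). No gene shown overlaps between the days, and replicate 3 of day 35 is the highest of its day for SWEET10, PL, STS 00800, the glucanase and 11s0052g01260.

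Single stilbene synthases were lower at day 42. In the block on chromosome 16, 34 IDs were tested: 0 rose, 4 fell and 30 did not pass, and all 34 had a negative log2 difference (median -0.67). Of all 21425 genes tested, 2.11% were called lower and 9511 had a negative difference. VIT_16s0100g00800 had 4.16, 1.63 and 1.83 RPKM at day 42 and 5.46, 10.9 and 12.1 RPKM at day 35. Day 42 was wholly below day 35, at 0.267 times its level (log2 difference -1.57, SE 0.33, limma adjusted p = 9.9e-05). VIT_16s0100g00840 had 2.17, 1.08 and 1.26 RPKM at day 42 and 3.01, 6.12 and 7.46 RPKM at day 35 (log2 difference -1.34, SE 0.29, adjusted p = 0.000147). The other 2 that fell, VIT_16s0100g00880 (-1.19, SE 0.36) and VIT_16s0100g00930 (-1.04, SE 0.26), missed the threshold without replicate 3 of day 35 (log2 differences -0.90 and -0.96), where the block had 2 called genes and a median of -0.48. The block had 2 (median -0.46) without replicate 3 of day 42, but 14 without replicate 1 of day 35, 15 (median -1.05) without replicate 1 of day 42, and 3 (median -0.54) with the set term. In the smaller block on chromosome 10, 2 of 9 fell and 7 did not pass (median -0.86), and without replicate 3 of day 35 none did; with the set term 1 fell. They were VIT_10s0042g00890 (1.46 ± 0.53 RPKM at day 42 and 4.24 ± 1.08 RPKM at day 35) and VIT_10s0042g00930 (1.52 ± 0.89 RPKM at day 42 and 4.37 ± 1.70 RPKM at day 35; SD, n = 3 each). With a pseudocount of 5, 0 IDs were called on chromosome 16 (median -0.45) and 0 on chromosome 10 (median -0.44). By limma's test against a minimum change of 0.5 log2, 1 was called on chromosome 16 and 0 on chromosome 10. The sum of the 34 chromosome 16 IDs was 579, 283 and 221 RPKM at day 42 and 360, 621 and 727 RPKM at day 35. Replicate 1 of each day thus lay inside the range of the other day, the high one of day 42 and the low one of day 35, so the summed levels overlapped.

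None of 3 regulators of stilbene synthases was called. MYB14 (VIT_07s0005g03340) had 26.3, 15.4 and 11.3 RPKM at day 42 and 13.2, 17.4 and 23.6 RPKM at day 35, with full overlap (log2 difference -0.08, SE 0.34). MYB15 (VIT_05s0049g01020) had 211, 148 and 138 RPKM at day 42 and 81.5, 111 and 79.3 RPKM at day 35, wholly above but under the size threshold (log2 difference 0.85, SE 0.27, limma adjusted p = 0.0142; 1.09 and called with the set term). Phenylalanine ammonia-lyase (PAL), which feeds both stilbenes and flavonoids, had 0 of 13 IDs called, and 1 called higher with the set term (median log2 difference -0.24; -0.47 without replicate 1 of day 35 and 0.01 without its replicate 2). Within the family the copies differed: VIT_13s0019g04460 averaged 99.7 ± 13.0 RPKM at day 42 and 55.0 ± 11.6 RPKM at day 35 without overlap, whereas VIT_08s0040g01710 averaged 71.2 ± 20.1 RPKM at day 42 and 99.5 ± 22.7 RPKM at day 35 with overlap (SD, n = 3 each). Both PAL IDs were picked with their values in view, and neither was called.

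Sugar transporters held a large change in each direction among 11 genes, with 9 not passing (median log2 difference -0.18). Of all genes, 1.3% were called higher and 2.11% lower. SWEET10 (VIT_17s0000g00830), of the SWEET family that lets sugars out of cells, had 9.40, 16.4 and 20.6 RPKM at day 42 and 88.3, 72.4 and 189.7 RPKM at day 35. Its level at day 42 was 0.132 times that of day 35, with all 3 libraries far below (log2 difference -2.77, SE 0.42, limma adjusted p = 6.56e-08; -2.36 without replicate 3 of day 35). HT1 (VIT_00s0181g00010), a hexose carrier of the plasma membrane, had 15.0, 19.5 and 16.8 RPKM at day 42 and 5.14, 5.69 and 8.03 RPKM at day 35. It was 2.72 times as high, again with no overlap (log2 difference 1.32, SE 0.25, limma adjusted p = 1.04e-05). HT6 (VIT_18s0122g00850), a carrier of the vacuole membrane with the highest RPKM among the hexose carriers of the list, had 99.3, 117 and 141 RPKM at day 42 and 218.8, 229 and 234 RPKM at day 35, wholly below but under the size threshold (log2 difference -0.94, SE 0.21, adjusted p = 0.000177; -1.15 and called with the set term).

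None of 3 invertases, which split sucrose, was called. The vacuolar invertase GIN1 (VIT_16s0022g00670) averaged 2.33 ± 0.40 RPKM at day 42 and 5.15 ± 1.12 RPKM at day 35 (log2 difference -0.87, adjusted p = 0.0591; -1.34 and called with the set term), and GIN2 (VIT_02s0154g00090) averaged 5.98 ± 1.11 RPKM at day 42 and 6.49 ± 1.40 RPKM at day 35 (SD, n = 3 each), with overlap.

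Of 7 cell wall genes, 0 rose, 2 fell and 5 did not pass (median log2 difference 0.29, so the 2 that fell went against the rest). Of all genes, 2.11% were called lower. PL (VIT_05s0051g00590), a pectate lyase that cuts pectin, had 28.6, 45.7 and 67.2 RPKM at day 42 and 113, 128 and 178 RPKM at day 35 (log2 difference -1.60, SE 0.54, limma adjusted p = 0.0197). EXPA18 (VIT_17s0053g00990), an expansin, a protein that loosens walls without cutting them, had 26.5, 38.3 and 45.7 RPKM at day 42 and 97.5, 99.2 and 103 RPKM at day 35 (log2 difference -1.45, SE 0.54, adjusted p = 0.0388). Both were free of overlap. Both missed the threshold without replicate 3 of day 35 (PL -1.41 log2, adjusted p = 0.104; EXPA18 -1.43 log2, adjusted p = 0.103) and without replicate 1 of day 42. EXPA18 also missed it without replicate 1 or 2 of day 35 or replicate 2 of day 42. Another expansin, EXPA14 (VIT_13s0067g02930), was at 1135 to 1218 RPKM at day 42 and 598 to 773 RPKM at day 35, without overlap but with a wide model error (log2 difference 0.78, SE 0.70).

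Among 6 NAC factors tied to ripening, 2 rose, 0 fell and 4 did not pass (median log2 difference 0.80), against 1.3% of all genes called higher. NAC26 (VIT_01s0026g02710) had 119.7, 85.1 and 80.8 RPKM at day 42 and 27.6, 37.1 and 43.5 RPKM at day 35 (log2 difference 1.38, SE 0.29, limma adjusted p = 9.39e-05). NAC61 (VIT_08s0007g07640) had 92.3, 84.3 and 77.3 RPKM at day 42 and 38.5, 34.0 and 50.4 RPKM at day 35 (log2 difference 1.04, SE 0.28, adjusted p = 0.0026). Neither overlapped between the days, and NAC61, close to the size threshold, fell under it without replicate 2 of day 35 or replicate 1 of day 42. NAC33 (VIT_19s0027g00230) had 27.5, 24.0 and 21.6 RPKM at day 42 and 15.3, 13.3 and 11.1 RPKM at day 35 (log2 difference 0.84, SE 0.23), and NAC60 (VIT_08s0007g07670), its opposite in sign, had 10.1, 7.99 and 8.44 RPKM at day 42 and 12.4, 14.1 and 23.1 RPKM at day 35 (-0.79, SE 0.24). The 4 other factors named in work on the onset of ripening gave 0 calls.

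The abscisic acid and defence lists gave 1 call each, both lower at day 42 (2.11% of all genes were called lower). An NCED gene (VIT_19s0093g00550), of the family that makes the precursor of abscisic acid, had 1.15, 0.918 and 1.09 RPKM at day 42 and 2.99, 2.88 and 5.00 RPKM at day 35 (log2 difference -1.14, SE 0.43, limma adjusted p = 0.0408), the 1 call among 8 genes of carotenoid cleavage and abscisic acid. This call was lost when any 1 of the 6 libraries was left out. The ethylene list gave 0 calls of 3, and 1 lower with the set term; the ethylene-forming oxidase ACO1 (VIT_12s0059g01380) had 141, 129.9 and 119.7 RPKM at day 42 and 184, 224 and 305 RPKM at day 35, without overlap (log2 difference -0.83, adjusted p = 0.0172). A glucanase of the defence list (VIT_08s0007g06060) had 33.1, 60.6 and 76.4 RPKM at day 42 and 125, 158 and 487 RPKM at day 35 (log2 difference -1.97, SE 0.69, adjusted p = 0.0266), the 1 call of 8, and it was lost without replicate 3 of day 35 (adjusted p = 0.251), without replicate 1 or 2 of day 42, and with the set term.

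The PR10 proteins, small defence proteins encoded side by side on chromosome 5, varied widely between libraries. The 12 tested IDs summed to 5769, 3589 and 2323 RPKM at day 42 and to 3562, 4730 and 10116 RPKM at day 35. The summed levels overlapped, and 1 of 12 IDs was called lower, against 2.11% of all genes (median log2 difference -0.79, and -0.43 without replicate 3 of day 35). It was 4 called (median -1.31) without replicate 1 of day 42 and 3 (median -1.08) without replicate 1 of day 35. That ID, VIT_05s0077g01600, had 1.21, 0.687 and 0.331 RPKM at day 42 and 2.24, 1.60 and 17.8 RPKM at day 35. Without the library at 17.8 RPKM its log2 difference was -0.77, against -1.66 with it, under the size threshold. The 4 genes of light and heat response and the 4 alcohol dehydrogenases gave 0 calls each.

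Outside the lists fixed for known genes, the largest falls by the rule for naming were in IDs that neither the files nor the reference table name. VIT_11s0052g01260 had 4.26, 9.08 and 7.72 RPKM at day 42 and 92.9, 48.6 and 139 RPKM at day 35. That is 0.0751 times the day 35 level, with no overlap (log2 difference -3.49, SE 0.49, limma adjusted p = 5.91e-09; -3.02 with the set term). VIT_18s0001g06150 had 14.7, 22.3 and 42.5 RPKM at day 42 and 287, 209 and 365 RPKM at day 35 (log2 difference -3.48, SE 0.49, adjusted p = 5.24e-09; -3.20 with the set term). Both calls held in all 19 alternatives run. On the higher side, VIT_18s0001g01750 was at 40.5, 75.6 and 73.3 RPKM at day 42 and listed at 0 in all 3 libraries of day 35, so no fold is given. Within other days it also varied by library, from 0 to 32.4 RPKM at day 21, 0 to 75.5 at day 28, 0 to 33.5 at day 49 and 0 to 70.2 at day 52. VIT_18s0089g01320 was at 19.2, 24.4 and 5.94 RPKM at day 42 and at 0, 4.75 and 0 RPKM at day 35. Both higher calls were lost in 8 and 10 of 19 alternatives.

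VIT_11s0052g01260 lies in a run of 17 consecutive IDs from VIT_11s0052g01180 to VIT_11s0052g01340, a run chosen after its values were seen. Of 14 tested IDs, 10 were called lower, 0 higher, and the median log2 difference was -2.17, against 2.11% of all genes called lower. Summed over these 14, the level was 14.1, 25.7 and 28.8 RPKM at day 42 and 256, 149.6 and 429 RPKM at day 35. Without replicate 3 of day 35, 8 were called (median -1.67), and with the set term 9 (median -2.02). Consecutive IDs mark neighbouring genes, often copies of each other. Across the whole comparison there were 12 groups of at least 3 called IDs lying at most 4 numbers apart, with 43 genes in all. Every one of the 12 was lower at day 42, where 453 genes were called lower and 279 higher. Groups of 3 and 7 IDs among them are parts of the chromosome 11 run itself, and a group of 3 lies in the stilbene synthase block of chromosome 16. The number of such groups to be expected in each direction was not tested.

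The days around the step share its libraries and are given as values. UFGT was no higher at day 35 than at day 21: it averaged 35.8 ± 1.73, 54.4 ± 17.7, 35.5 ± 4.27, 85.5 ± 5.98, 67.2 ± 11.6 and 63.5 ± 10.3 RPKM at days 21, 28, 35, 42, 49 and 52 (SD, n = 3 each). Stilbene synthases had the opposite shape. The median over the 34 chromosome 16 IDs of their mean RPKM was 7.97, 2.43, 12.7, 5.74, 3.55 and 4.23 at these days, with day 35 the highest, and 31 of the 34 were called higher at day 35 than at day 28 (0.989% of all genes). The chromosome 11 run was at 10.5, 3.23, 6.55, 0.495, 0.489 and 0.553 RPKM by the same measure, so that its high levels ended with day 35. SWEET10, HT6, PL and EXPA18 had lower means at day 42 than at any of the 3 days before, though libraries of day 28 spread widely. SWEET10 averaged 209.6, 158, 117, 15.5, 18.5 and 13.5 RPKM and PL 335, 342, 139.8, 47.2, 25.7 and 18.7 RPKM. HT1 peaked at day 42, with 3.75, 4.34, 6.28, 17.1, 6.99 and 7.35 RPKM.

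**Figure D3:**
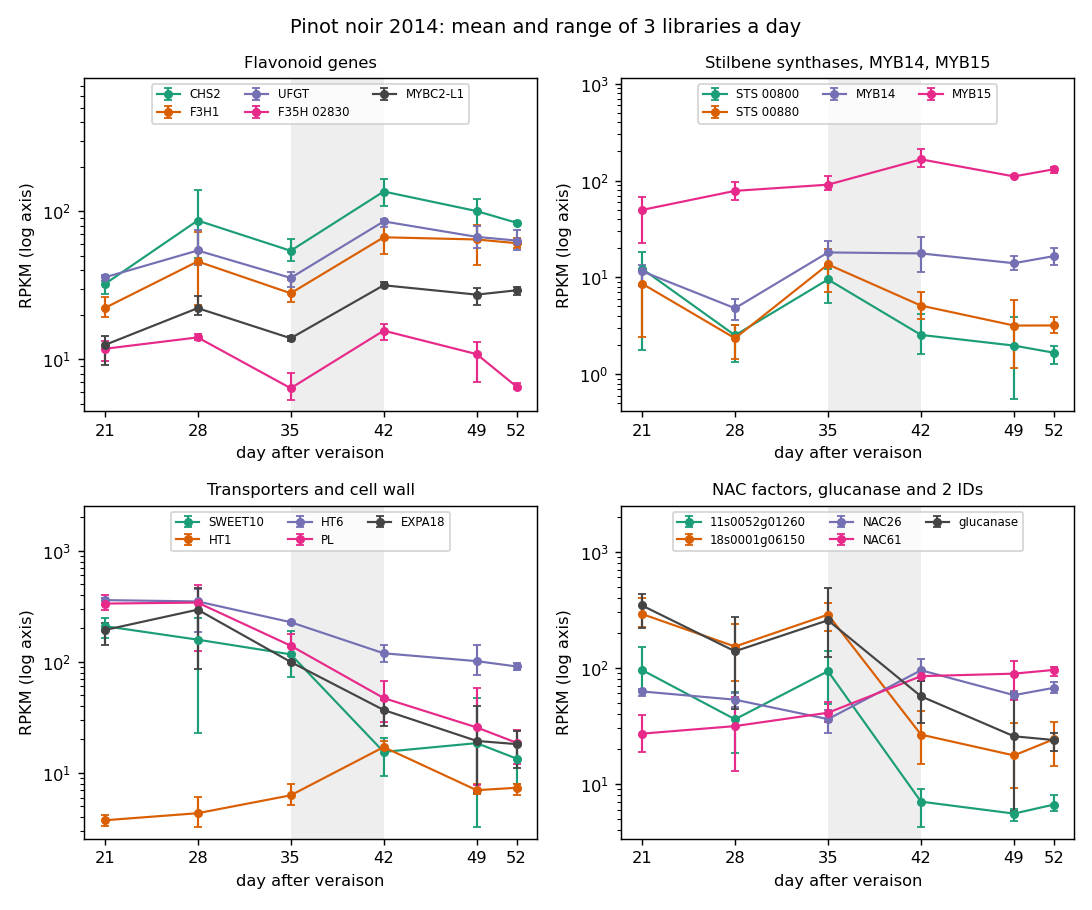
Mean RPKM (log axes) with the lowest and highest of 3 libraries against day after veraison in Pinot noir 2014, for 19 genes in 4 panels; the grey band marks days 35 to 42. UFGT is at 85.5 RPKM at day 42 and 35.5 RPKM at day 35, and SWEET10 at 15.5 RPKM at day 42 and 117 RPKM at day 35; libraries of days 28 and 49 spread widely.

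The step was then set beside the same one in other seasons and in the other cultivar, none of which shares a library with it. Sugar differed in how far it moved: it was 23.85 g/100 ml at day 42 and 19.85 at day 35 in Pinot noir 2014, 22.87 and 22.04 in Pinot noir 2013, 26.54 and 20.62 (at day 32) in Pinot noir 2012, and 20.89 and 21.16 in Cabernet Sauvignon 2014. The counts called were 732 (3.42%) in Pinot noir 2014, 147 (0.686%) in Pinot noir 2013, 573 (2.67%) in Pinot noir 2012 over the longer interval, and 26 (0.121%) in Cabernet Sauvignon 2014. Of the 279 genes higher in 2014, 261 had a positive difference in Pinot noir 2013, 243 in Pinot noir 2012 and 164 in Cabernet Sauvignon 2014. Over all genes tested, 54.6%, 61.4% and 40.0% were positive in these 3 steps, and the 279 genes had 93.5%, 87.1% and 58.8%. Of the 453 lower genes, 425, 391 and 282 were negative (93.8%, 86.3% and 62.3%, against 42.0%, 35.3% and 55.7% over all genes). The sizes were smaller there: the lower genes had a median log2 difference of -1.37 in Pinot noir 2014, -0.67 in Pinot noir 2013, -0.49 in Pinot noir 2012 and -0.12 in Cabernet Sauvignon 2014, which is partly built in, since they were picked by their size in 2014. In Pinot noir 2013 the day 42 set held 1 of 3 libraries on each day, and the day 35 set held 0. The set term therefore cancels in that step, so its equal values with the term are no check.

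The lists differed in their medians between the steps. The median log2 difference of the flavonoid core genes was 0.81 in Pinot noir 2014, 0.08 in Pinot noir 2013, 0.46 in Pinot noir 2012 and 0.11 in Cabernet Sauvignon 2014; for F35H it was 0.88, 0.43, 0.46 and -0.03; and for the chromosome 11 run -2.17, -0.72, -1.08 and -0.23. NAC26 differed by 1.38 in Pinot noir 2014 and by 1.30 in Pinot noir 2013, where it was also called (0.196% of all genes were called higher there), but by 0.03 in Pinot noir 2012 and -0.02 in Cabernet Sauvignon 2014. The glucanase VIT_08s0007g06060 differed by -1.97 in Pinot noir 2014 and by -2.00 in Pinot noir 2013, where it was not called (adjusted p = 0.0944), with an interaction of 0.03. The run on chromosome 11 had 10 of 14 IDs called lower in Pinot noir 2014, 4 in Pinot noir 2013, 6 in Pinot noir 2012 and 0 in Cabernet Sauvignon 2014, where 0.49%, 0.644% and 0.0747% of all genes were called lower in the last 3 steps. By the interaction, 0 of the 14 IDs passed against Pinot noir 2013. Against Cabernet Sauvignon 2014, 6 passed, all lower, as did 377 of all 21425 genes. The run was chosen by its fall in Pinot noir 2014, so its larger size there is partly built in.

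**Figure D4:**
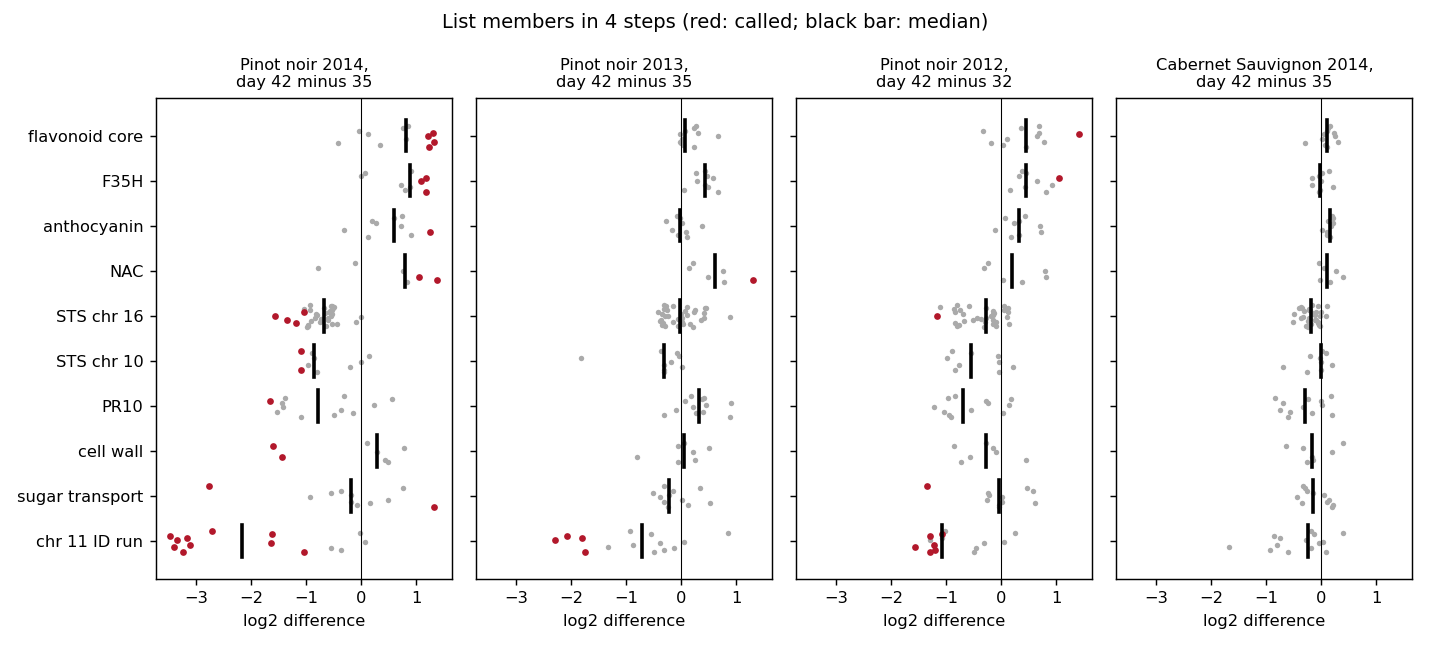
Log2 differences of the tested members of 10 lists in 4 steps, 1 point per gene, red where called, with the median as a black bar; a positive value is higher on the later day. The median of the chromosome 11 run lies left of 0 in all 3 Pinot noir panels (-2.17, -0.72 and -1.08), and most lists lie near 0 in Cabernet Sauvignon 2014.

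The difference between steps was tested directly, as an interaction term. Against Pinot noir 2013, 72 genes (0.336%) had a step that differed in 2014 by at least 1 log2 at an adjusted p under 0.05, with 36 higher and 36 lower. This count was 21 without replicate 3 of day 35, 43 without replicate 2 of day 42 and 53 (23 higher, 30 lower) with the set term. Against Cabernet Sauvignon 2014 there were 600 (2.8%), of which 223 were higher and 377 lower; there were 375 without replicate 3 of day 35 and 472 (165 higher, 307 lower) with the set term. SWEET10 differed from both, with an interaction of -2.46 against Pinot noir 2013 (limma adjusted p = 0.0143), where its own difference was -0.31, and of -2.44 against Cabernet Sauvignon 2014 (adjusted p = 0.0028), where it was -0.33. HT1 did so in the other direction, with 1.57 (adjusted p = 0.0068) and 1.12 (adjusted p = 0.0247). No interaction was run against Pinot noir 2012, where mean sugar, in the units given above, was 26.54 at day 42 and 20.62 at day 32. In that step 1 of 11 sugar transporters was called lower and 0 higher. Whether the changes of SWEET10 and HT1 differed from that step was not tested. For the flavonoid core and anthocyanin lists no member passed in either interaction: CHS2 had 1.01 (adjusted p = 0.403) against Pinot noir 2013 and 1.08 (adjusted p = 0.171) against Cabernet Sauvignon 2014, so a difference of the step between seasons or cultivars was not shown for it. The 3 F35H members that rose in Pinot noir 2014 did pass against Cabernet Sauvignon 2014, by 1.09 to 1.35 (1.04% of all genes were called higher in that interaction).

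**Figure D5:**
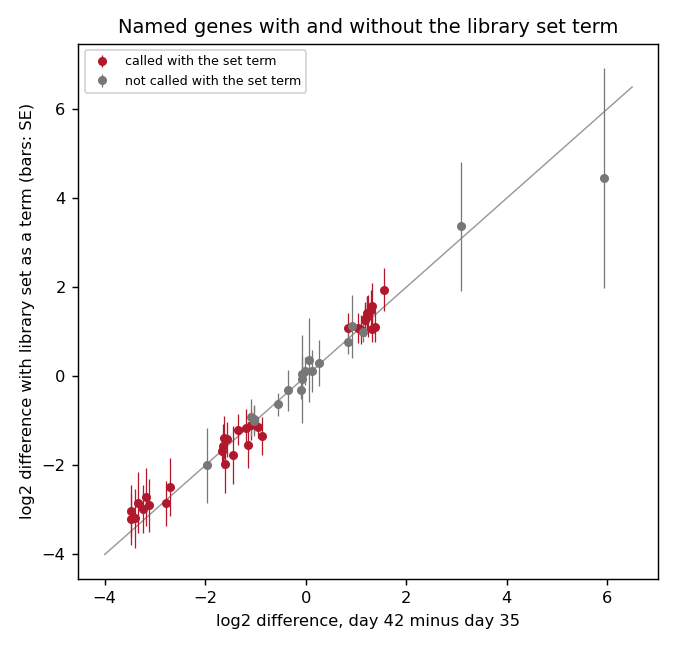
Log2 difference, day 42 minus day 35, of the named genes and of the chromosome 11 run without (x axis) and with (y axis) the library set as a term; bars are the SE with the term and the line marks equal values. Red points are called with the term and grey points are not, and most points lie near the line, from -3.49 without and -3.02 with the term for VIT_11s0052g01260 to 1.31 without and 1.50 with it for CHS2. The point farthest from it is VIT_18s0001g01750, at 5.95 without and 4.46 with the term, where its call was lost.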

How the data were processed

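The authors deposited 1 table of RPKM values per gene and library, 29971 IDs in 73 groups of 3 libraries, from non-directional libraries, per the labels' protocols. Per the submitters' processing notes, TopHat2 2.0.6 and Cufflinks 2.0.2 were used; build and annotation are not given in the sources used here. Depth is unknown, so no counting interval is given.

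Values were set to log2(RPKM + 1), which shrinks changes of low genes. The 21425 genes that reached 1 RPKM in 3 or more libraries were fitted with limma 3.58.1 (R 4.3.3; trend and robust eBayes), with a mean for each of the 73 groups (146 residual degrees of freedom). P-values measure the spread between libraries of a group. The fit was tested on simulated data.

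The comparison and the lists (20 lists, 170 of 183 genes tested) were chosen with earlier results of these data known. Symbols come from published use of the IDs: of 117 single genes checked against RefSeq (0 IDs match), 63 symbols lie on the chromosome in the ID, 2 have IDs without one, 48 are absent and 4 lie elsewhere and are not used as symbols here, apart from PAL as a family. Named were up to 6 called genes per list with the largest change, always MYBA1, MYBA2, UFGT, GST4, MYB14, MYB15, NAC33, NAC61, HT6, SWEET10, GIN1, GIN2 and CHI4D, and 2 IDs per direction in no list with a mean RPKM of at least 5 and no overlap. Other list members named (such as 3AT, AOMT, LDOX, F3'H, CHI1, DFR, MYB5a, F3H2, MYBF1, EXPA14, NAC60, ACO1 and 2 PAL IDs) were chosen after their values were seen. The TMM alternative was computed on RPKM without count weights.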

Additional observations from a re-analysis of the deposited data

Results flagged for a closer look

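Steps that differed from the same step in another season or cultivar are listed here with the interaction, in log2, Pinot noir 2014 minus the other. The step of Pinot noir 2012 was not tested in this way. Against Pinot noir 2013, 72 genes differed, among them SWEET10 by -2.46, HT1 by 1.57 and the PR10 ID VIT_05s0077g01600 by -1.74. Against Cabernet Sauvignon 2014, 600 genes differed, among them SWEET10 by -2.44, HT1 by 1.12 and VIT_05s0077g01600 by -1.66. The PR10 values rest on replicate 3 of day 35, which had 17.8 RPKM beside 2.24 and 1.60 RPKM.

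Others differed by this test against Cabernet Sauvignon 2014. The stilbene synthases VIT_16s0100g00800 and VIT_16s0100g00840 gave -1.65 and -1.23, and the NCED gene VIT_19s0093g00550 gave -1.90. On the positive side, NAC26 gave 1.40, MYBC2-L1 1.29, and the F35H genes VIT_06s0009g02830, VIT_06s0009g02810 and VIT_06s0009g02880 gave 1.35, 1.22 and 1.09. Mean sugar was 23.85 g/100 ml at day 42 and 19.85 at day 35 in Pinot noir 2014, and 20.89 at day 42 and 21.16 at day 35 in Cabernet Sauvignon 2014, and its part in these differences was not tested.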

How the results depend on the processing

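No called value reversed its direction in any alternative run. Uncalled values near 0 did change sign: MYB14 (-0.08) ran from -0.39 to 0.18, GIN2 (-0.10) from -0.30 to 0.05, the PAL median (-0.24) was 0.13 at a mean RPKM of at least 5, and the median of the abscisic acid list (-0.04) was 0.02 without replicate 1 of day 35. For the step itself (732 called, 279 higher, 453 lower), a pseudocount of 0.1 gave 1401 called (585 higher, 816 lower), a pseudocount of 5 gave 336 (126 and 210), and limma's test against a minimum change of 0.5 log2 (treat) gave 345 (111 and 234). Leaving out each replicate gave 552 to 885 called, 249 to 330 higher and 300 to 586 lower, the fewest called without replicate 3 of day 35. For the difference from Pinot noir 2013 (72 called), a pseudocount of 5 gave 28 (15 higher, 13 lower), a mean RPKM of at least 5 gave 23 lower, treat gave 1 (0 and 1), a fit of the compared libraries alone gave 125 (69 and 56), and the library set as a term gave 23 higher. Leaving out each replicate gave 21 to 105 called, 13 to 42 higher and 8 to 63 lower; it was 21 without replicate 3 of day 35 and 43 without replicate 2 of day 42. For the difference from Cabernet Sauvignon 2014 (600 called), a pseudocount of 0.1 gave 903 (410 higher), a pseudocount of 5 gave 286 (84 and 202), a mean RPKM of at least 5 gave 135 higher, and treat gave 94 (36 and 58). Leaving out each replicate gave 375 to 712 called, 177 to 246 higher and 198 to 478 lower. The library set term was chosen after seeing the data. The cause of these shifts was not tested.

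With the replicate number as a block, 733 genes were called (279 higher, 454 lower), and 69 and 597 in the differences from Pinot noir 2013 and Cabernet Sauvignon 2014. Deviations of same-numbered libraries correlated at 0.009, 0.041 and -0.024, so the numbers were not taken to pair the libraries. Of 38 called genes named or in the chromosome 11 run, 9 kept their call in all alternatives, 17 lost it when some library was left out and 7 with the library set. Without read counts, the depth that limits low values is unknown.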

Other observations

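Some genes of the same pathway moved apart within the step. MYB14 and MYB15, both regulators of stilbene synthases, had log2 differences of -0.08 and 0.85, while all 34 stilbene synthase IDs of chromosome 16 were negative. Within day 42, replicate 1 had the highest summed stilbene synthase level (579 RPKM, beside 283 and 221), the highest summed PR10 level (5769 RPKM, beside 3589 and 2323) and the lowest summed level of the chromosome 11 run (14.1 RPKM, beside 25.7 and 28.8). Within day 35, replicate 3 was highest for all 3 sums (727, 10116 and 429 RPKM).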
